A study of Mus musculus with 18 samples.

Results

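Antiviral genes induced by type I interferon were followed across 18 mouse tumours, 3 in each of 6 groups, sequenced as total tumour RNA. The set was a list of 37 gene symbols, chosen by name and not by a measured value in the rule, though with earlier results of these data known. Of these, 34 were found in the deposited table of 26538 genes by symbol, and Oas1b, Mx1 and Mx2, found neither by symbol nor by NCBI gene number, were not analysed here. All 34 had a mean of at least 0.5 FPKM (fragments per length of transcript and per mapped fragments of the library, a level comparable between genes) over the tumours and were tested together with 12587 genes in all. The labels describe every tumour as an untreated tumour resected after the therapy. This is read here as a tumour other than the treated one, whose place the labels do not give. The groups were cryo-thermal therapy plus anti-PD-1, cryo-thermal therapy alone, radiofrequency ablation plus anti-PD-1, radiofrequency ablation alone, cryoablation plus anti-PD-1 and cryoablation alone. Cryoablation destroys tissue by freezing, radiofrequency ablation by heating and cryo-thermal therapy by freezing followed by heating, and anti-PD-1 is an antibody against an inhibitory receptor of T cells. All 6 groups had an ablation, so that no level here can be read as one without ablation. The sources used here give no mouse strain, age or sex, no tumour line, no antibody dose, no day of collection and no word on pooling of animals. The comparisons ask whether the kind of ablation, or the antibody added to it, goes with another level of these genes in an untreated tumour.

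Type I interferons (interferon alpha and beta) are made by cells that sense foreign or misplaced nucleic acid, and they act on neighbouring cells through the receptor IFNAR1/IFNAR2 and the kinases JAK1 and TYK2. These kinases activate the transcription factor complex ISGF3, which holds STAT2 and IRF9 and binds the interferon-stimulated response element (ISRE) in the promoters of antiviral genes. Interferon gamma, made by T and NK cells, acts mainly through another element (GAS), and many genes answer to both. In tumours, type I interferon is known for its part in the priming of T cells by dendritic cells.

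The promoters of 6 genes are printed because their genes carry the differences described further on, and because they show how much sequence the genes of a pair share. Each runs from 250 bases before to 50 bases after the annotated start, in RefSeq annotation of the build GRCm38.p6, 5′ to 3′ on the strand of the gene, and capitals mark each match, on either strand, to the ISRE core, which is GAAA, any 2 bases and GAAA again. The windows are chr19:34583279-34583578, plus strand for Ifit3, chr19:34607707-34608006, plus strand for Ifit3b, chr4:156200769-156201068, minus strand for Isg15, chr8:71537423-71537722, minus strand for Bst2, chr5:120907476-120907775, minus strand for Oas1a and chr3:151749861-151750160, minus strand for Ifi44. These are coordinates of the reference, and the build behind the expression table is not given in the sources used here.
Ifit3: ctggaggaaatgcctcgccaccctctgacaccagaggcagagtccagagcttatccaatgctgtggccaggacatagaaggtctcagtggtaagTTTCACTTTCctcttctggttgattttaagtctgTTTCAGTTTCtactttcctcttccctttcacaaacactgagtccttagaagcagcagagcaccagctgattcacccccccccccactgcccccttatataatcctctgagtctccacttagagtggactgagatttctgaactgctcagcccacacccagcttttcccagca
Ifit3b: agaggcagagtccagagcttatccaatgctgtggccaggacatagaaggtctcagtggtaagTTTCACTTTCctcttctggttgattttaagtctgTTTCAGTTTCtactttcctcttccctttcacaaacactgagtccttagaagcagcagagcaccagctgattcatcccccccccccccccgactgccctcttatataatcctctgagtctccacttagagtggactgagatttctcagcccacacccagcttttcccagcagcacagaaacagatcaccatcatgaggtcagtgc
Isg15: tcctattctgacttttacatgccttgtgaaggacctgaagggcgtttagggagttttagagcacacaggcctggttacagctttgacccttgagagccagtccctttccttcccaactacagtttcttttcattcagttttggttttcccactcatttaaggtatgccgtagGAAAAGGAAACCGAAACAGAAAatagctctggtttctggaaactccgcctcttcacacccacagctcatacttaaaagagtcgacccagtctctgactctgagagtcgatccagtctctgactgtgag
Bst2: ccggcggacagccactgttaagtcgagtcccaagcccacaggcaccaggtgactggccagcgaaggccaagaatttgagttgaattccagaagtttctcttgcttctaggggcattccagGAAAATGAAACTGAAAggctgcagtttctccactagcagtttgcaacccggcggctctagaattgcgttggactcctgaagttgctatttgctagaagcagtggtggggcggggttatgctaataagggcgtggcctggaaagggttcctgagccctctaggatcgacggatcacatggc
Oas1a: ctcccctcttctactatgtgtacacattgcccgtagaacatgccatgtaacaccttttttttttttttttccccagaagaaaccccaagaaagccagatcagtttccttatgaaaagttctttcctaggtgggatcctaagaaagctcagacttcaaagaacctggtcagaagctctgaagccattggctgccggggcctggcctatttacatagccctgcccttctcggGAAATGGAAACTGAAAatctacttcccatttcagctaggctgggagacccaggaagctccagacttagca
Ifi44: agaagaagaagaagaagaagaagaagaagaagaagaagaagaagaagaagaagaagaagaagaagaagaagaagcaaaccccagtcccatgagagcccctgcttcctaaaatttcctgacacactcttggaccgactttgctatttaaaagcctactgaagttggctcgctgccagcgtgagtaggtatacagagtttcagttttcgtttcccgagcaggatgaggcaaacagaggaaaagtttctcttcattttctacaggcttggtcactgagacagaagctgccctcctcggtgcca
Ifit3 and Ifit3b were identical at 258 of 260 aligned bases, and both hold a pair of matches that read TTTC first, that is, on the opposite strand. Isg15 holds 3 overlapping matches whose first bases lie at -78, -72 and -66 from the start, the matches of Bst2 lie at -130 and -124 and overlap each other, with the first also overlapping a GAS-like stretch, and those of Oas1a lie at -20 and -14. Oas1a and Oas1g were identical at 261 of 294 aligned bases. Ifi44, which had the largest difference of all members between cryo-thermal and cryoablation tumours, holds none in this window. Of the 34 genes, 27 had a window, some of them more than one (30 windows), and Oas2, Usp18, Rtp4, Ifi27, Dhx58, Parp9 and Parp14 had no entry. The ISRE core was in 14 of 30 member windows (46.7%) against 1131 of 32851 windows of all genes (3.44%), and the 9-letter GAS stretch TTCNNNGAA, searched in the same way, was in 5 of 30 (16.7%) against 8.30% of all. The list was made of genes known to be induced by interferon, so an excess of the ISRE core may be built in. The 14 windows, from 13 members, are also not independent. They include the similar pairs Ifit3 with Ifit3b and Oas1a with Oas1g, and more than 1 window of Trim30a. A match describes these letters only, and no match says nothing of the factor. Several members also lie side by side in the same assembly. Rsad2 is next to Cmpk2, Oasl2 to Oasl1, Oas2 to Oas3 and Oas1g to Oas1a, Parp14, Dtx3l and Parp9 form a row, and Ifit2, Ifit3, Ifit3b and Ifit1 lie in one cluster with at most 1 protein-coding gene between neighbours. Of the 34 members, 21 (61.8%) carry the term defense response to virus in the annotation of the deposited table, against 166 of 12587 genes tested (1.32%). The list was made of antiviral genes, so this excess was built in.

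The libraries came out as even in depth by an estimate that leans towards this result. FPKM, already scaled by library size, summed to between 408042 and 442383 per tumour. Of 19364 low values, 99.9% came out as whole multiples of a step (tolerance 0.05 fragments), which put the relative depth at 0.985 to 1.02. Only genes whose lowest values lay close together across tumours were used, which favours equal depth. Log2 profiles correlated at r = 0.972 to 0.995 across genes within groups and 0.955 to 0.993 between groups. The labels name the tissue as tumour and give no tumour type, and the carcinoma epithelium markers (Epcam, Krt8 and others) summed to 2.52 to 10.2 FPKM and the melanocyte markers to at most 0.321 FPKM, with Epcam at most 2.36 and Krt8 at most 0.971 FPKM. Hair follicle and keratinocyte genes were highest in cryo-thermal plus anti-PD-1 replicate 1 (423 FPKM in sum) and in the first 2 replicates of cryoablation plus anti-PD-1 (205 and 224), against 39.1 to 160.2 elsewhere, and the results that turn on these libraries are given with and without them. No label says that each tumour of a group had its own animal, and p-values thus measure only how far these samples spread, which may be technical. Unless another test is named, adjusted p-values come from limma's moderated test on log2(FPKM + 1) over 12587 genes with Benjamini-Hochberg adjustment and a threshold of 0.05, and a gene is said to have risen or fallen only where it passed. An exact permutation test of a single gene could not go below p = 0.1 with 3 tumours on each side.

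The mean level of the 34 genes, as log2(FPKM + 1), was 3.53, 3.67 and 3.70 in the cryo-thermal plus anti-PD-1 tumours, 4.36, 3.68 and 3.54 in the cryo-thermal tumours, 3.45, 3.16 and 3.73 in the radiofrequency plus anti-PD-1 tumours, 3.31, 3.30 and 3.14 in the radiofrequency tumours, 3.73, 2.82 and 2.57 in the cryoablation plus anti-PD-1 tumours and 2.12, 2.67 and 2.23 in the cryoablation tumours. The 3 cryoablation tumours were lower than all others, except that cryoablation replicate 2 exceeded cryoablation plus anti-PD-1 replicate 3, and cryo-thermal replicate 1 stood above all others. In bulk tumour RNA, more cells of a type that expresses these genes and more RNA per cell cannot be told apart. By gene, cryo-thermal therapy alone had the highest group mean for 27 members and cryo-thermal therapy plus anti-PD-1 for the other 7, which were Eif2ak2, Parp9, Parp12, Parp14, Dtx3l, Xaf1 and Lgals3bp. Without cryo-thermal replicate 1 these counts were 13 and 20, with 1 member highest in radiofrequency plus anti-PD-1 tumours. Cryoablation alone had the lowest mean for 33, with Samd9l, lowest in cryoablation plus anti-PD-1, as the exception. Cryo-thermal replicate 1 was the highest of the 18 tumours for 33 genes, all except Ifi27, and cryoablation replicate 1 was the lowest for 20.

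**Figure D1:**
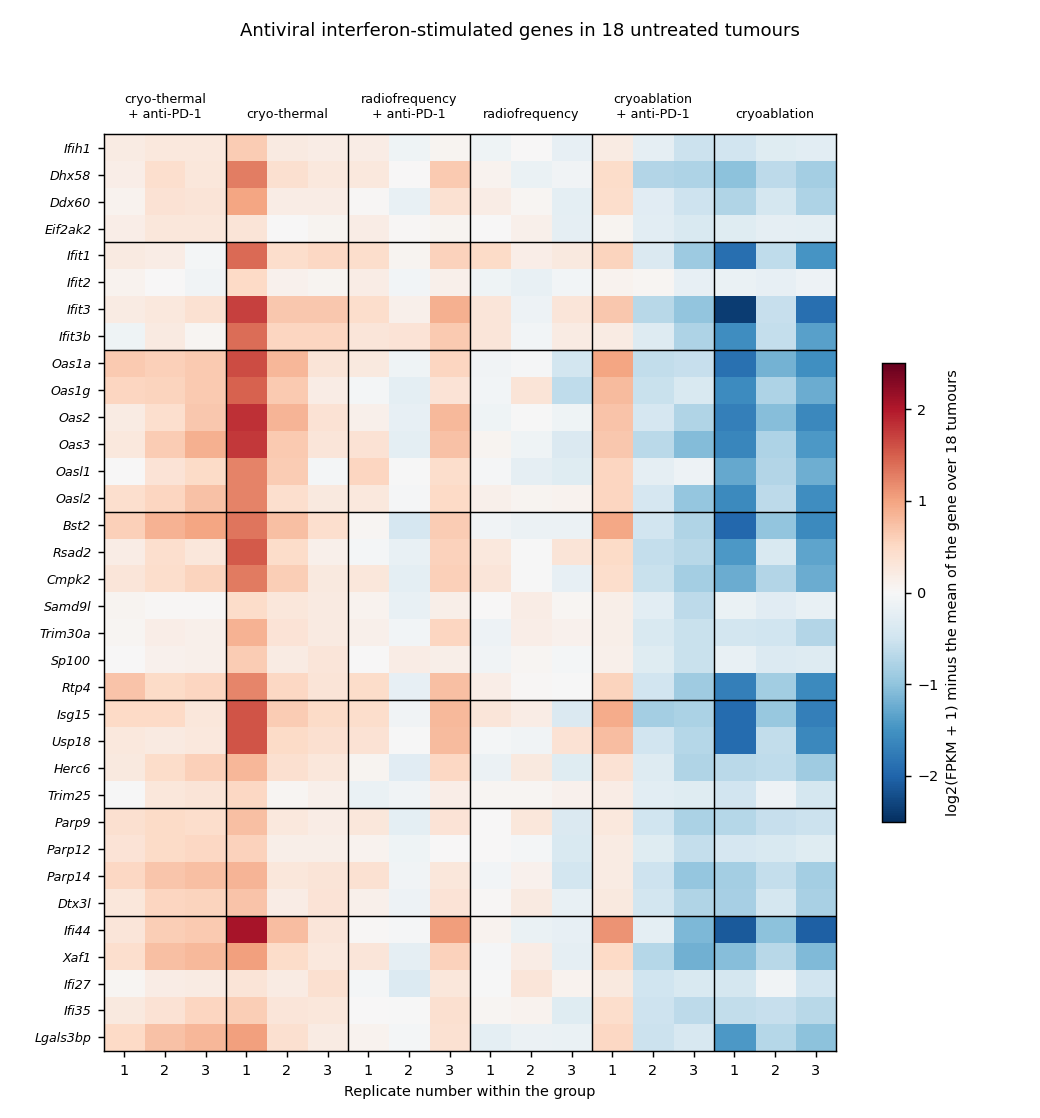
Level of each of the 34 genes (rows, by role) in each of the 18 tumours (columns, by group and replicate number), as log2(FPKM + 1) minus the gene's mean over all tumours. Cryo-thermal replicate 1 is the highest column for 33 genes, and cryoablation plus anti-PD-1 replicate 1 is above its 2 companions for all 34.

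Within each group the median member spread more widely than the median gene. The SD over the 3 tumours, as a median over members, was 0.12 on the log2 scale in cryo-thermal plus anti-PD-1 tumours, 0.47 in cryo-thermal tumours, 0.30 in radiofrequency plus anti-PD-1 tumours, 0.18 in radiofrequency tumours, 0.59 in cryoablation plus anti-PD-1 tumours and 0.26 in cryoablation tumours, where the median over all genes tested was 0.09 to 0.12. Cryoablation plus anti-PD-1 replicate 1 was the highest of its group for 34 of 34 genes, at least 1.5 times both companions for 27 and at least 2 times both for 16. In the radiofrequency plus anti-PD-1 group, replicate 2 was the lowest for 31 genes and replicate 3 the highest for 27. A moderated F test over the 6 groups passed for 30 of 34 members, while 18% of all genes tested passed, and the 4 that did not were Ifit2 (adjusted p = 0.110), Ifi27 (0.0842), Trim25 (0.0704) and Samd9l (0.0565). That count was 10 without cryoablation replicate 1 and 14 without cryoablation replicate 3.

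The widest difference lay between cryo-thermal therapy and cryoablation, both without antibody. All 34 members rose in cryo-thermal tumours, where 8.01% of all genes tested were called higher, with a median log2 fold change of 1.57 (0.38 to 2.77) beside -0.01 over all genes and adjusted p-values of 0.0041 to 0.038. In all 34 genes the 3 cryo-thermal values lay above the 3 cryoablation values, as they did for 17.7% of all genes. By role, the median log2 fold change was 2.07 for the oligoadenylate synthetases (a role that also holds OAS-like proteins) and 2.05 for the IFIT proteins. It was 1.75 for the restriction factors, 1.72 for the ISG15 system and 1.53 for the other interferon-induced genes. The lowest medians were 1.06 for the ADP-ribosylation genes and 0.91 for the RNA sensors. Of 12 other settings or left-out tumours, the calls of Eif2ak2, Ifit2, Ifi27, Samd9l and Trim25 held in 5 to 7, and those of the other 29 members in 10 or more.

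Among the RNA sensors, Dhx58, which encodes LGP2, a regulator of the RNA sensors RIG-I and MDA5, had 13.4, 6.77 and 6.09 FPKM in cryo-thermal tumours, against 1.91, 2.73 and 2.26 FPKM in cryoablation tumours (log2 fold change 1.50, SE 0.30, adjusted p = 0.00693). The helicase gene Ddx60 had 6.12, 3.08 and 3.10 FPKM in cryo-thermal tumours, against 1.13, 1.63 and 1.09 FPKM in cryoablation tumours (log2 fold change 1.11, SE 0.24, adjusted p = 0.0101). In both genes cryo-thermal replicate 1 was far above its companions, and the groups did not overlap. Eif2ak2, the gene of PKR, a kinase that stops translation on meeting double-stranded RNA, had 14.5, 11.4 and 11.9 FPKM in cryo-thermal tumours, against 9.06, 9.59 and 9.48 FPKM in cryoablation tumours, without overlap but with the smallest fold change of the 34 (log2 fold change 0.38, SE 0.11, adjusted p = 0.0379). Ifih1, the gene of MDA5, rose by 0.70 on the log2 scale.

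The IFIT proteins bind viral RNA and block its translation. Ifit3 had 31.4, 15.0 and 14.9 FPKM in cryo-thermal tumours, against 0.936, 5.71 and 1.71 FPKM in cryoablation tumours (log2 fold change 2.62, SE 0.44, adjusted p = 0.00491). Ifit1 had 18.5, 8.92 and 9.53 FPKM in cryo-thermal tumours, against 0.999, 3.76 and 1.66 FPKM in cryoablation tumours (log2 fold change 2.11, SE 0.35, adjusted p = 0.00451). Cryoablation replicate 2 was the highest of its group in both genes, and still below every cryo-thermal tumour. Ifit2, which lies next to Ifit3 and has no ISRE core match in its windows, had the smallest fold change of the family, at 13.1, 9.75 and 9.42 FPKM in cryo-thermal tumours, against 7.91, 7.70 and 8.18 FPKM in cryoablation tumours (log2 fold change 0.39, SE 0.11, adjusted p = 0.0292). Ifit3b, the least abundant member, was higher by 1.99 on the log2 scale, but 27.4% of its transcript's 100-base stretches also occur in other genes, chiefly Ifit3, and the split of fragments between the pair is uncertain.

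The oligoadenylate synthetases make the signal that activates the RNA-degrading enzyme RNase L, and their role here also holds OAS-like proteins. Oas2 had 14.7, 7.05 and 4.70 FPKM in cryo-thermal tumours, against 0.371, 1.12 and 0.466 FPKM in cryoablation tumours (log2 fold change 2.47, SE 0.38, adjusted p = 0.00433). Oas1a had 24.4, 13.4 and 9.18 FPKM in cryo-thermal tumours, against 1.25, 2.57 and 1.83 FPKM in cryoablation tumours (log2 fold change 2.45, SE 0.37, adjusted p = 0.00433). Oasl2, the most abundant of this role, had 43.3, 23.8 and 21.0 FPKM in cryo-thermal tumours, against 5.16, 10.9 and 5.39 FPKM in cryoablation tumours (log2 fold change 1.90, SE 0.34, adjusted p = 0.00545). The lowest cryo-thermal tumour was replicate 3 in each of these 3 genes, and no cryoablation tumour reached it. Oas3, Oas1g and Oasl1 rose by 2.19, 1.96 and 1.68 on the log2 scale, and Oas1a and Oas1g share 40.9% and 31.2% of their 100-base stretches with other genes, chiefly each other.

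Of the factors that restrict entry, replication and budding, Bst2, the gene of tetherin, which holds budding virions at the cell surface, was the most abundant member of all. It had 315, 208 and 166 FPKM in cryo-thermal tumours, against 30.9, 61.6 and 40.4 FPKM in cryoablation tumours (log2 fold change 2.35, SE 0.38, adjusted p = 0.00451). Rtp4, a receptor transporter gene with antiviral activity, had 18.5, 10.9 and 9.41 FPKM in cryo-thermal tumours, against 1.58, 3.60 and 1.79 FPKM in cryoablation tumours (log2 fold change 2.06, SE 0.34, adjusted p = 0.00451). The highest cryoablation tumour was replicate 2 in both, well under the lowest cryo-thermal one. Rsad2, the gene of viperin, and its neighbour Cmpk2, which encodes a nucleotide kinase, rose by 1.75 and 1.79 on the log2 scale, and Trim30a, Sp100 and Samd9l by 1.04, 0.67 and 0.54.

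ISG15 is a ubiquitin-like protein that is secreted or joined to other proteins. Isg15 had 72.7, 37.9 and 33.8 FPKM in cryo-thermal tumours, against 5.52, 11.9 and 6.67 FPKM in cryoablation tumours (log2 fold change 2.42, SE 0.42, adjusted p = 0.00491). Usp18, whose product takes ISG15 off proteins and dampens the interferon receptor, had 14.5, 6.27 and 5.86 FPKM in cryo-thermal tumours, against 0.369, 2.41 and 0.700 FPKM in cryoablation tumours (log2 fold change 2.20, SE 0.40, adjusted p = 0.00555). In both genes cryo-thermal replicate 1 was the highest and cryoablation replicate 1 the lowest of the 6 tumours. Herc6, the ligase that attaches ISG15 in mice, rose by 1.25 and Trim25, a ubiquitin ligase of the RIG-I pathway, by 0.58 on the log2 scale.

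The ADP-ribosylation genes code for enzymes that attach ADP-ribose to proteins, and for a partner of one of them. Parp14 had 16.0, 10.4 and 10.8 FPKM in cryo-thermal tumours, against 4.25, 5.23 and 4.25 FPKM in cryoablation tumours (log2 fold change 1.25, SE 0.24, adjusted p = 0.00633). Dtx3l, whose product is the ubiquitin ligase that partners PARP9, had 18.7, 12.6 and 14.3 FPKM in cryo-thermal tumours, against 5.76, 7.90 and 5.80 FPKM in cryoablation tumours (log2 fold change 1.11, SE 0.22, adjusted p = 0.00661). Parp12 had 30.4, 22.3 and 22.5 FPKM in cryo-thermal tumours, against 14.7, 15.1 and 16.0 FPKM in cryoablation tumours (log2 fold change 0.66, SE 0.16, adjusted p = 0.0170). The cryo-thermal values lay above the cryoablation values in all 3 genes. Parp9, the neighbour of Dtx3l, rose by 1.01 on the log2 scale.

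Of the other interferon-induced genes, Ifi44 had 24.6, 9.37 and 6.56 FPKM in cryo-thermal tumours, against 0.424, 1.99 and 0.484 FPKM in cryoablation tumours, the largest fold change of the 34 (log2 fold change 2.77, SE 0.51, adjusted p = 0.00555). Lgals3bp, which encodes a secreted glycoprotein that binds galectins, had 84.1, 53.9 and 47.1 FPKM in cryo-thermal tumours, against 14.4, 24.6 and 19.6 FPKM in cryoablation tumours (log2 fold change 1.60, SE 0.25, adjusted p = 0.00451). Neither gene overlapped between the groups. Xaf1, Ifi35 and Ifi27 rose by 1.53, 1.03 and 0.64 on the log2 scale. Over the 27 members with a promoter window, the median log2 fold change was 1.99 (0.38 to 2.62) for the 13 with an ISRE core match and 1.18 (0.39 to 2.77) for the 14 without one, ranges that overlap almost in full.

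**Figure D2:**
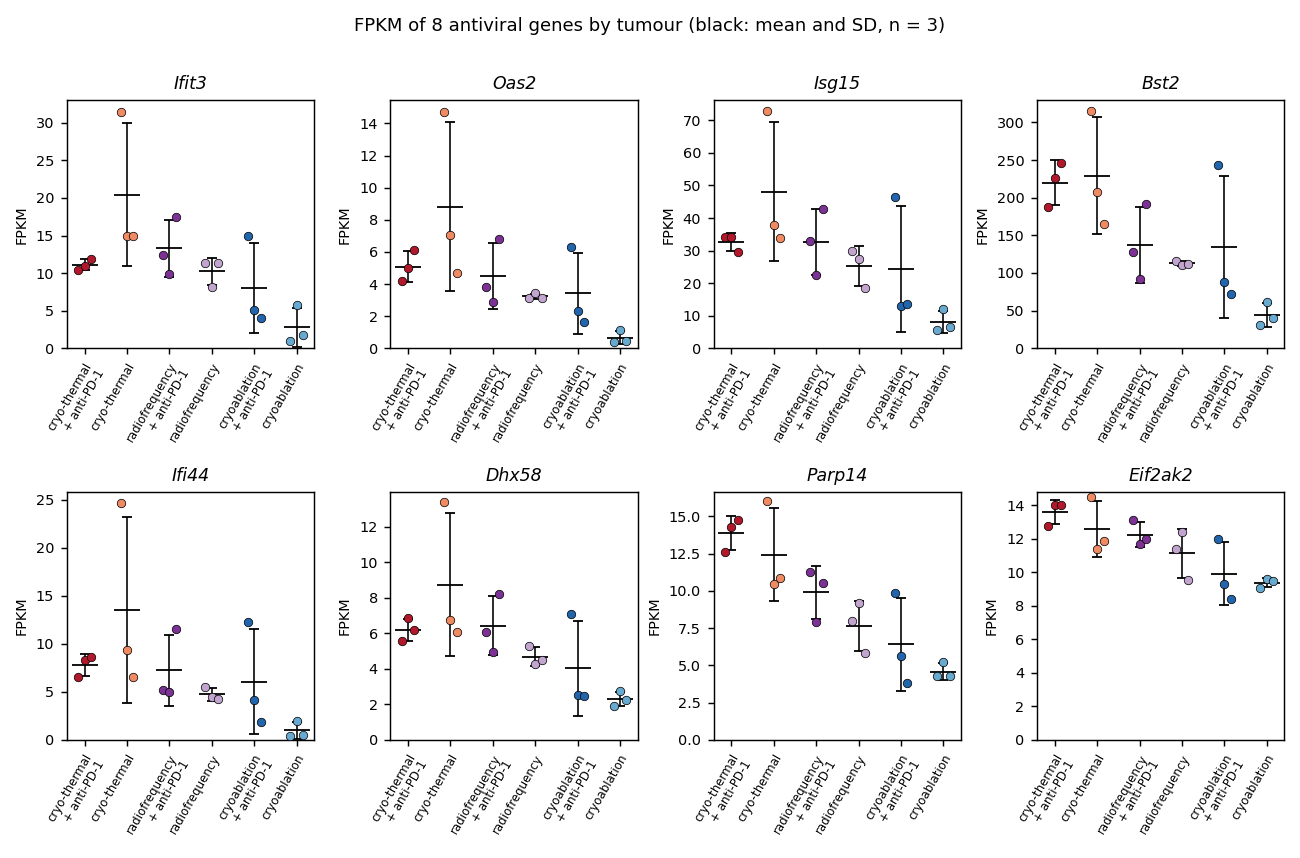
FPKM of Ifit3, Oas2, Isg15, Bst2, Ifi44, Dhx58, Parp14 and Eif2ak2 (vertical axes, each from 0) in every tumour of the 6 groups, with points for tumours and black marks for the mean and SD (n = 3). Cryoablation has the lowest mean in each panel, and replicate 1 of cryoablation plus anti-PD-1 lies above the other 2, as with Ifit3 at 14.9 against 5.15 and 4.06 FPKM.

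Other cells and genes moved with the members in this comparison. All 7 T cell markers rose, with a sum of 36.9, 24.8 and 11.8 FPKM in cryo-thermal tumours, against 2.33, 3.41 and 3.15 FPKM in cryoablation tumours, with cryo-thermal replicate 1 the highest and replicate 3 the lowest of its group, as they were for 33 and 24 of the members. Of 8 macrophage and monocyte markers 3 rose, with sums of 483 to 841 FPKM in cryo-thermal tumours, against 348 to 431 in cryoablation tumours. All 4 erythroid markers tested and 3 of 4 neutrophil markers fell, as did 1 of 4 carcinoma epithelium and 1 of 6 fibroblast markers, while 1 of 2 markers of conventional dendritic cells and the 1 tested marker of B and plasma cells rose. Of 6 markers of plasmacytoid dendritic cells, which are strong producers of type I interferon, 2 passed the filter, 1 of them higher, and the defining marker Siglech was at most 0.49 FPKM in any tumour. The part of these cells in the members' difference was not tested.

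Radiofrequency tumours lay between the others, yet no member passed against either. In radiofrequency tumours against cryoablation tumours all 34 fold changes were positive with a median of 0.88 (0.04 to 1.76). Unadjusted limma p-values under 0.05 were found for 28 members and for 1902 of all 12587 genes. With adjustment over all genes 0 members passed, where 0.00794% of genes did, with adjusted p-values of 0.106 and above. In 31 of 34 genes the radiofrequency values were all above the cryoablation values, as in 10.6% of all genes tested, and the overlapping ones were Eif2ak2, Ifit2 and Parp12. Ifit3 had 11.3, 8.13 and 11.3 FPKM in radiofrequency tumours, against 0.936, 5.71 and 1.71 FPKM in cryoablation tumours (log2 fold change 1.76, SE 0.44, adjusted p = 0.138). Ifi44 had 5.46, 4.44 and 4.27 FPKM in radiofrequency tumours, against 0.424, 1.99 and 0.484 FPKM in cryoablation tumours (log2 fold change 1.62, SE 0.51, adjusted p = 0.170). Isg15 had 29.8, 27.5 and 18.4 FPKM in radiofrequency tumours, against 5.52, 11.9 and 6.67 FPKM in cryoablation tumours (log2 fold change 1.57, SE 0.42, adjusted p = 0.152). The lowest radiofrequency tumour exceeded the highest cryoablation tumour in each of these genes. Without cryoablation replicate 2 the count of members called was 3. T cell markers summed to 4.94, 12.1 and 6.49 FPKM in radiofrequency tumours, against 2.33, 3.41 and 3.15 FPKM in cryoablation tumours, with 0 of 7 past the test, and their part was not tested.

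In cryo-thermal tumours against radiofrequency tumours all 34 fold changes were again positive, with a median of 0.59 (0.16 to 1.15). Unadjusted limma p-values under 0.05 were found for 18 members and for 1712 of all 12587 genes. With adjustment 0 members passed (0.00794% of genes called, adjusted p-values of 0.262 and above, and 1 member without cryo-thermal replicate 3). In 24 genes the cryo-thermal values were all above the radiofrequency values, as in 8.08% of all genes. Bst2 had 315, 208 and 166 FPKM in cryo-thermal tumours, against 116, 111 and 111 FPKM in radiofrequency tumours (log2 fold change 0.97, SE 0.38, adjusted p = 0.312). Oas2 had 14.7, 7.05 and 4.70 FPKM in cryo-thermal tumours, against 3.16, 3.44 and 3.16 FPKM in radiofrequency tumours (log2 fold change 1.08, SE 0.38, adjusted p = 0.271). Neither overlapped, and cryo-thermal replicate 1 was the highest in both. Without cryo-thermal replicate 1 the median was 0.36, and all 34 were still positive. The genes that overlapped between the groups were Eif2ak2, Ifit1, Oas1g, Oasl1, Rsad2, Cmpk2, Trim25, Parp9, Dtx3l and Ifi27. The comparisons among ablations use the same tumours and so depend on each other.

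With anti-PD-1 added, the difference between cryo-thermal therapy and cryoablation passed for 3 members, Parp14, Parp12 and Eif2ak2, all higher, where 3.24% of all genes were called higher. The median over members was 0.62 (0.02 to 1.14) with all 34 positive. Unadjusted limma p-values under 0.05 were found for 18 members and for 2605 of all 12587 genes. Parp14 had 12.6, 14.2 and 14.8 FPKM in cryo-thermal plus anti-PD-1 tumours, against 9.85, 5.59 and 3.79 FPKM in cryoablation plus anti-PD-1 tumours (log2 fold change 1.08, SE 0.24, adjusted p = 0.0267). Parp12 had 25.9, 28.4 and 29.4 FPKM in cryo-thermal plus anti-PD-1 tumours, against 23.5, 16.0 and 13.0 FPKM in cryoablation plus anti-PD-1 tumours (log2 fold change 0.68, SE 0.16, adjusted p = 0.0356). Eif2ak2 had 12.8, 14.0 and 14.0 FPKM in cryo-thermal plus anti-PD-1 tumours, against 12.0, 9.32 and 8.42 FPKM in cryoablation plus anti-PD-1 tumours (log2 fold change 0.43, SE 0.11, adjusted p = 0.0484). These 3 did not overlap between the groups, as was so for 5 members in all and for 15.5% of all genes, and cryoablation plus anti-PD-1 replicate 1 came nearest to the cryo-thermal values in each.

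In the other 29 members the groups overlapped. Ifit3 had 10.4, 11.0 and 11.9 FPKM in cryo-thermal plus anti-PD-1 tumours, against 14.9, 5.15 and 4.06 FPKM in cryoablation plus anti-PD-1 tumours (log2 fold change 0.61, SE 0.44, adjusted p = 0.472). Isg15 had 34.3, 34.0 and 29.5 FPKM in cryo-thermal plus anti-PD-1 tumours, against 46.5, 12.9 and 13.5 FPKM in cryoablation plus anti-PD-1 tumours (log2 fold change 0.66, SE 0.42, adjusted p = 0.400). In both genes replicate 1 of cryoablation plus anti-PD-1 was the highest of the 6 tumours. The next members by adjusted p were Dtx3l (0.0555), Xaf1 (0.0667), Parp9 (0.0722) and Lgals3bp (0.0771). Without cryoablation plus anti-PD-1 replicate 1 the count of members called was 21 and the median 1.00. Without the 3 tumours richest in hair follicle RNA, which leaves replicate 3 alone in cryoablation plus anti-PD-1, the median was 1.11. The count was 0 without replicate 2 or 3 of either group and when only these 2 groups were fitted. Shares of all genes called under these settings are not given here. T cell markers were again higher, 5 of 7, with a sum of 35.1, 36.3 and 38.2 FPKM in cryo-thermal plus anti-PD-1 tumours, against 22.1, 7.37 and 5.60 FPKM in cryoablation plus anti-PD-1 tumours, where replicate 1 was also the highest of its group, and their part was not tested. Without cryoablation plus anti-PD-1 replicate 3 the median over members was 0.37.

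**Figure D3:**
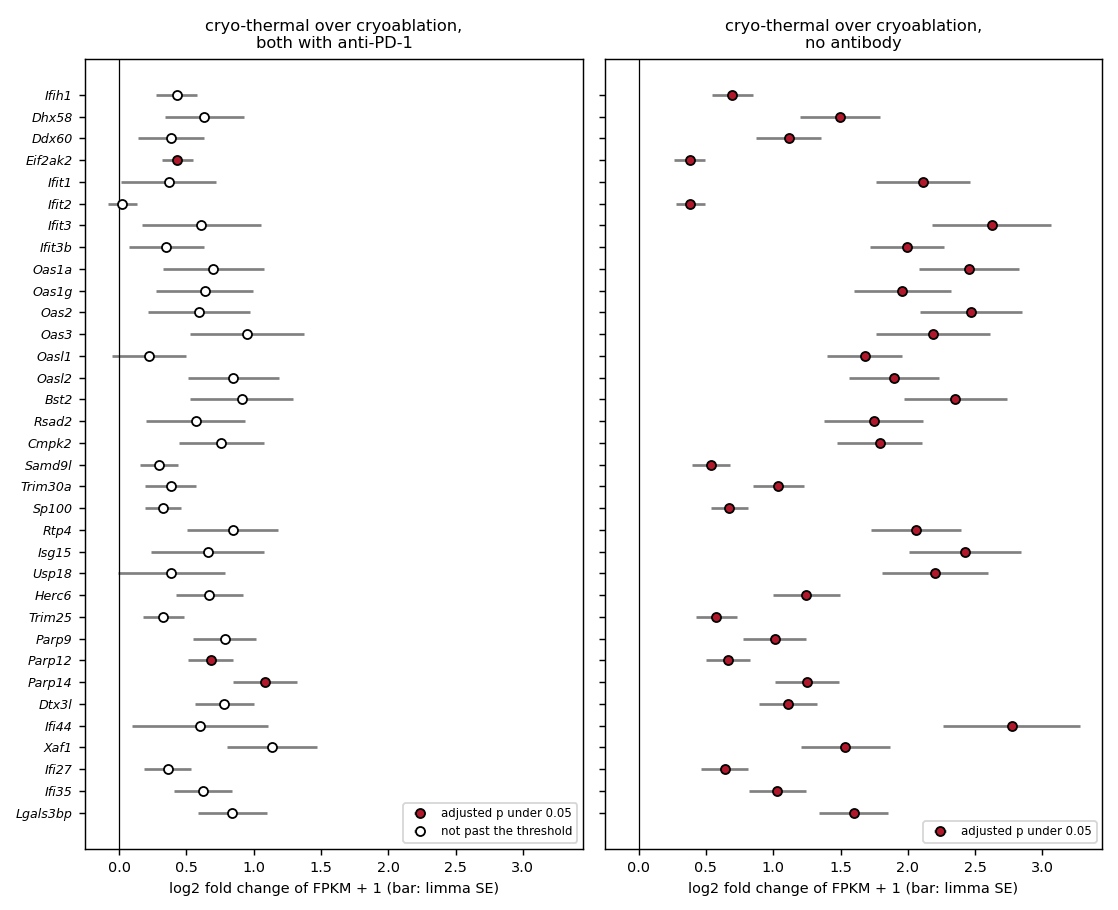
Log2 fold change of FPKM + 1, cryo-thermal therapy over cryoablation (horizontal axis, bars are limma's SE), for each of the 34 genes, with anti-PD-1 on the left and without antibody on the right. Filled points passed the adjusted threshold, which 3 genes did with the antibody and 34 without it.

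Against radiofrequency plus anti-PD-1, no member passed in cryo-thermal plus anti-PD-1 tumours (0 of 34 higher with 0.818% of all genes called higher, median 0.19, 25 positive). An unadjusted limma p under 0.05 was found for 2 of 34 members, a smaller share than the 2162 of all 12587 genes. The values did not overlap in 7 higher genes and 1 lower gene, as for 11.8% and 11.1% of all genes, and the lower one was Ifit3b, at 1.98, 2.74 and 2.33 FPKM in cryo-thermal plus anti-PD-1 tumours, against 2.95, 3.06 and 4.06 FPKM in radiofrequency plus anti-PD-1 tumours (log2 fold change -0.38, SE 0.28, adjusted p = 0.525). Bst2 had 188, 227 and 246 FPKM in cryo-thermal plus anti-PD-1 tumours, against 128, 91.5 and 192 FPKM in radiofrequency plus anti-PD-1 tumours, which overlap in 1 tumour (log2 fold change 0.73, SE 0.38, adjusted p = 0.344). The median over members was 0.04 without radiofrequency plus anti-PD-1 replicate 2 and 0.39 without replicate 3. Of 7 T cell markers 2 rose in this comparison, and their part was not tested. Radiofrequency plus anti-PD-1 against cryoablation plus anti-PD-1 gave 0 members past the test, as it gave 0 of all genes, with a median of 0.39 and all 34 positive. It gave 6 members and 736 of all 12587 genes with an unadjusted limma p under 0.05, and 1 member without overlap (6.03% of all genes). That median was 0.74 without cryoablation plus anti-PD-1 replicate 1, 0.18 without replicate 3 and 0.85 without the 3 tumours richest in hair follicle RNA.

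The antibody was compared within each ablation. After cryoablation, 3 members rose with anti-PD-1, Oasl1, Oas1a and Bst2, where 1.79% of all genes were called higher. The median was 0.64 (-0.04 to 1.64) with 33 of 34 positive. Unadjusted limma p-values under 0.05 were found for 17 members and for 3071 of all 12587 genes. Oas1a had 15.3, 4.29 and 4.49 FPKM in cryoablation plus anti-PD-1 tumours, against 1.25, 2.57 and 1.83 FPKM in cryoablation tumours (log2 fold change 1.46, SE 0.37, adjusted p = 0.0401). Bst2 had 243, 88.1 and 72.5 FPKM in cryoablation plus anti-PD-1 tumours, against 30.9, 61.6 and 40.4 FPKM in cryoablation tumours (log2 fold change 1.42, SE 0.38, adjusted p = 0.0481). Oasl1 had 3.95, 1.90 and 2.12 FPKM in cryoablation plus anti-PD-1 tumours, against 0.415, 1.05 and 0.466 FPKM in cryoablation tumours (log2 fold change 1.13, SE 0.28, adjusted p = 0.0358). The groups did not overlap in these genes, which held for 7 members and for 13.6% of all genes, and cryoablation plus anti-PD-1 replicate 1 was the highest of its group in each. Ifi44 had the largest fold change without passing, at 12.2, 4.12 and 1.81 FPKM in cryoablation plus anti-PD-1 tumours, against 0.424, 1.99 and 0.484 FPKM in cryoablation tumours (log2 fold change 1.64, SE 0.51, adjusted p = 0.0722). Without cryoablation plus anti-PD-1 replicate 1 the count was 0 and the median 0.31. Without the 3 tumours richest in hair follicle RNA, which leaves replicate 3 alone in cryoablation plus anti-PD-1, the median was 0.17. The count was 0 also without cryoablation replicate 1 or 3 and 9 without cryoablation replicate 2. The T cell sum of 22.1, 7.37 and 5.60 FPKM in cryoablation plus anti-PD-1 tumours, against 2.33, 3.41 and 3.15 FPKM in cryoablation tumours, had the same tumour on top, with 0 of 7 T cell markers past the test. Erythroid markers summed to 49.5, 49.0 and 93.9 FPKM in cryoablation plus anti-PD-1 tumours, against 667, 492 and 701 FPKM in cryoablation tumours, and 2 of 4 fell. Of 2 tested markers of plasmacytoid dendritic cells 1 rose, Cox6a2, but Siglech, Ccr9, Klk1 and Pacsin1 of the same list were under the filter. This rise alone does not show more of these cells, and their amount was not tested. Skeletal muscle markers summed to 46.8, 43.6 and 57.7 FPKM in cryoablation plus anti-PD-1 tumours, against 13.7, 17.5 and 18.4 FPKM in cryoablation tumours. Of 6 fibroblast markers 1 fell, Pdgfra. The part of these cells in the members' difference was not tested.

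After radiofrequency ablation no member passed with the antibody (0 of 34, 0.0318% of all genes called higher), with a median of 0.18 and 30 positive. An unadjusted limma p under 0.05 was found for 0 members and for 1457 of all 12587 genes. Without radiofrequency plus anti-PD-1 replicate 3 the median was 0.06 with 22 positive, and without replicate 2 it was 0.34 with 32 positive. Lgals3bp had 43.5, 39.5 and 52.9 FPKM in radiofrequency plus anti-PD-1 tumours, against 34.3, 36.6 and 36.2 FPKM in radiofrequency tumours (log2 fold change 0.32, SE 0.25, adjusted p = 0.649). Ifi44 had 5.21, 4.96 and 11.5 FPKM in radiofrequency plus anti-PD-1 tumours, against 5.46, 4.44 and 4.27 FPKM in radiofrequency tumours (log2 fold change 0.44, SE 0.51, adjusted p = 0.764). Lgals3bp did not overlap and was 1 of 3 such members, higher in each, as 7.66% of all genes were, and Ifi44 overlapped, with replicate 3 of the antibody group alone far above.

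After cryo-thermal therapy no member passed with the antibody, and the direction of most members turned on 1 tumour. The median was -0.21 (-0.77 to 0.17) and 27 of 34 were negative, while 0.127% of all genes were called lower. An unadjusted limma p under 0.05 was found for 2 members and for 1631 of all 12587 genes. Without cryo-thermal replicate 1 the median was 0.05, with 20 positive and 14 negative. Ifit3 had 10.4, 11.0 and 11.9 FPKM in cryo-thermal plus anti-PD-1 tumours, against 31.4, 15.0 and 14.9 FPKM in cryo-thermal tumours (log2 fold change -0.74, SE 0.44, adjusted p = 0.493). Usp18 had 5.24, 5.11 and 5.27 FPKM in cryo-thermal plus anti-PD-1 tumours, against 14.5, 6.27 and 5.86 FPKM in cryo-thermal tumours (log2 fold change -0.56, SE 0.40, adjusted p = 0.568). The groups did not overlap in 7 genes, all lower with the antibody (Ifit1, Ifit3, Ifit3b, Samd9l, Trim30a, Sp100 and Usp18), as 9.2% of all genes were. By role the IFIT proteins had a median of -0.70, the oligoadenylate synthetases -0.30 and the ADP-ribosylation genes 0.10, the only role of the 7 above 0. Without cryo-thermal replicate 1 these medians were -0.38, 0.09 and 0.26, and only the IFIT proteins and the ISG15 system (-0.03) were below 0. Parp14 had 12.6, 14.2 and 14.8 FPKM in cryo-thermal plus anti-PD-1 tumours, against 16.0, 10.4 and 10.8 FPKM in cryo-thermal tumours, which overlap (log2 fold change 0.17, SE 0.24, adjusted p = 0.802).

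Whether the effect of the antibody differed between ablations was tested directly. For cryo-thermal therapy minus cryoablation the difference of the antibody effects had a median of -0.81 over members, with 32 of 34 negative. Unadjusted limma p-values under 0.05 were found for 17 members and for 1687 of all 12587 genes. With adjustment over all genes 0 members passed (0.0556% of all genes called lower). That count was 2 without cryo-thermal replicate 3 and 1 without cryoablation replicate 2, and the median was -0.34 without the 3 tumours richest in hair follicle RNA, -0.45 without cryoablation plus anti-PD-1 replicate 1 and -0.53 without cryo-thermal replicate 1. The lowest adjusted p-values were those of Ifit3b (-1.64, SE 0.39, adjusted p = 0.0942) and Oasl1 (-1.46, SE 0.39, adjusted p = 0.128). For cryo-thermal therapy minus radiofrequency ablation the median was -0.33 (-0.12 without cryo-thermal replicate 1, -0.17 without radiofrequency plus anti-PD-1 replicate 3 and -0.49 without cryo-thermal replicate 3). Here 4 members and 910 of all 12587 genes had an unadjusted limma p under 0.05. For radiofrequency ablation minus cryoablation the median was -0.48 (-0.08 without the 3 tumours richest in hair follicle RNA, -0.17 without cryoablation plus anti-PD-1 replicate 1 and -0.31 without radiofrequency plus anti-PD-1 replicate 2). Here 1 member and 956 of all genes had such a p. In either comparison 0 members passed limma over all genes, as did 0 of all genes. Averaged over the ablations, the antibody effect on members had a median of 0.19 with 31 positive, and 0 passed, where 5.28% of all genes were called higher. An unadjusted limma p under 0.05 was found for 5 of 34 members, a smaller share than the 3584 of all 12587 genes. That median was 0.08 without cryoablation plus anti-PD-1 replicate 1 and 0.06 without the 3 tumours richest in hair follicle RNA. The count was 3 without cryo-thermal replicate 1 and 1 without replicate 2 of cryoablation or of cryoablation plus anti-PD-1. Lgals3bp came nearest (0.46, SE 0.15, adjusted p = 0.0600).

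**Figure D4:**
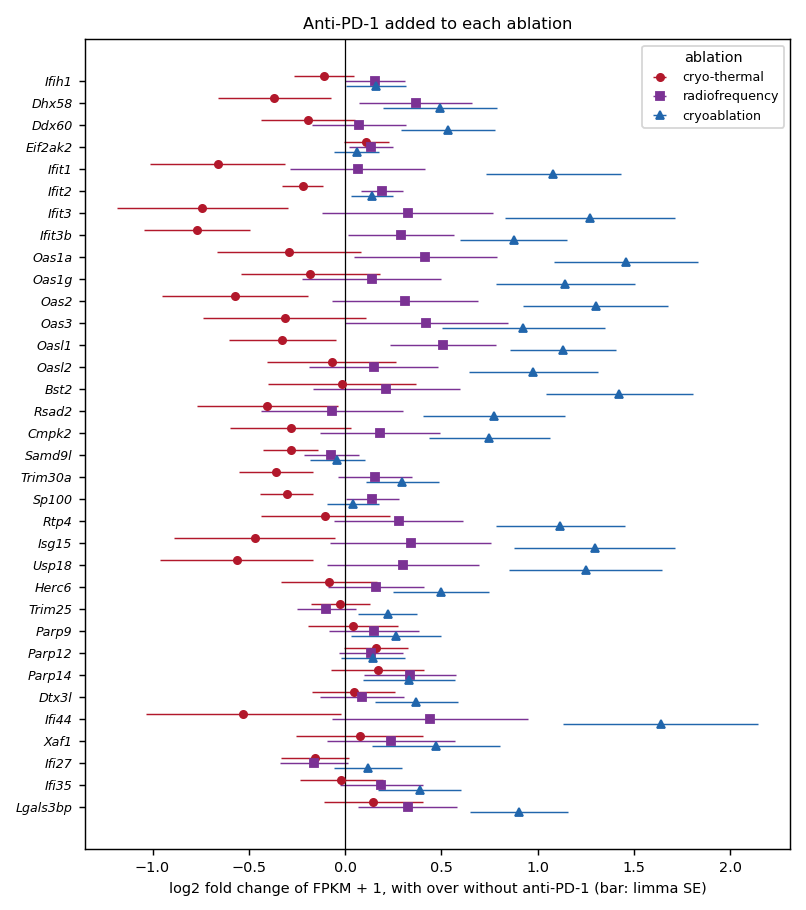
Log2 fold change of FPKM + 1, with over without anti-PD-1 (horizontal axis, bars are limma's SE), for the 34 genes after cryo-thermal therapy, radiofrequency ablation and cryoablation. Medians are -0.21, 0.18 and 0.64, and the 3 effects share no tumours.

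Upstream of the members, transcripts of the ligands were scarce. Of 20 genes for type I and type III interferons listed, 8 were in the table, none passed the filter and their summed level was at most 0.358 FPKM in any tumour. Ifnb1 (interferon beta) was highest at 0.225 FPKM in cryo-thermal plus anti-PD-1 replicate 2 and was listed at 0 in 9 of 18 tumours, all 3 cryoablation tumours among them. Neither receptor gene passed, while Stat2 and Irf9, which encode parts of ISGF3, rose. Ifnar2 had 7.95, 6.46 and 6.57 FPKM in cryo-thermal tumours, against 6.00, 6.10 and 5.45 FPKM in cryoablation tumours (log2 fold change 0.22, SE 0.09, adjusted p = 0.0979). Irf9 had 23.5, 17.8 and 17.3 FPKM in cryo-thermal tumours, against 6.61, 10.3 and 7.07 FPKM in cryoablation tumours (log2 fold change 1.20, SE 0.20, adjusted p = 0.00451). Stat2 rose by 1.46 on the log2 scale in cryo-thermal tumours, and with anti-PD-1 in both groups Irf9 (0.80, adjusted p = 0.0376) rose.

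Of 17 tested genes of nucleic acid sensing and interferon induction, 10 rose and 0 fell in cryo-thermal against cryoablation tumours, with a median of 0.43. Irf7, the factor that drives interferon alpha genes and is itself induced by interferon, had 48.1, 22.6 and 18.1 FPKM in cryo-thermal tumours, against 2.85, 6.68 and 3.15 FPKM in cryoablation tumours (log2 fold change 2.50, SE 0.41, adjusted p = 0.00451). Zbp1, a sensor of left-handed nucleic acid, rose by 2.65, Rigi, the gene of RIG-I, by 0.82 and the endosomal DNA receptor gene Tlr9 by 0.61 on the log2 scale. Irf7 had the same high tumour as the members, cryo-thermal replicate 1. Of 5 genes that brake the pathway 2 rose, Socs1 (0.86) and Ptpn6 (0.80).

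The genes listed as targets of interferon gamma had their highest mean level in cryo-thermal plus anti-PD-1 tumours. The list was set by name, and its genes may also answer to type I interferon. The 2 lists thus do not separate the 2 signals. In cryo-thermal against cryoablation tumours 16 of 17 rose with a median of 2.46, among them Gbp6 (2.60), Gbp4 (3.14), Cd74 (2.40) and H2-Ab1 (2.46), and Ifng rose by 1.04 on the log2 scale. With anti-PD-1 in both groups 12 of these 17 rose in cryo-thermal against cryoablation tumours (median 1.84), where 3 of the 34 antiviral genes did. Their mean level as log2(FPKM + 1) was 5.91, 6.24 and 6.34 in cryo-thermal plus anti-PD-1 tumours, against 5.92, 5.36 and 5.18 in cryo-thermal tumours, with a median log2 fold change of 0.61 and 0 of 17 past the test, beside -0.21 for the antiviral genes. The antiviral genes averaged 3.63 in cryo-thermal plus anti-PD-1 tumours, against 3.86 in cryo-thermal tumours, or 3.61 without cryo-thermal replicate 1. The difference between the lists was not tested. The chemokine gene Cxcl10, induced by either interferon, went the other way from both lists, at 39.0, 77.7 and 73.9 FPKM in cryo-thermal tumours, against 176, 141 and 189.6 FPKM in cryoablation tumours (log2 fold change -1.45, SE 0.43, adjusted p = 0.0356).

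**Figure D5:**
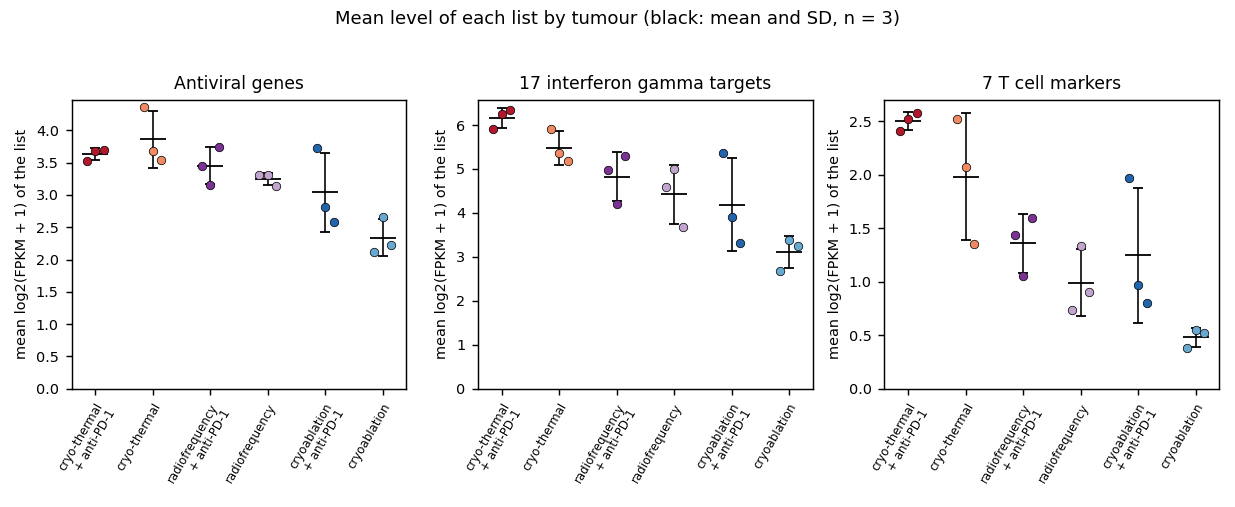
Mean log2(FPKM + 1) per tumour (vertical axes from 0) of the 34 antiviral genes, the 17 interferon gamma targets and the 7 T cell markers, with points for tumours and black marks for the mean and SD (n = 3). The antiviral genes peak at 4.36 in cryo-thermal replicate 1, and in each panel cryoablation plus anti-PD-1 replicate 1 is above its 2 companions.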

How the data were processed

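The authors deposited one table of FPKM values per gene, with a column for each tumour. Per the labels, TRIzol and a silica column with DNase treatment gave the RNA, and a VAHTS Universal V6 kit the libraries. The submitters' processing notes name HTSeq 0.11.2. Which aligner, genome build, annotation, strand setting and filter were used is not given in the sources used here. Fragment counts are not part of the table, so depth was estimated from the steps between low values, and no interval or detection limit was computed from it. There were 0 identical column pairs.

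Values were analysed as log2(FPKM + 1), which understates the fold change of genes near 0 FPKM. A model with 6 group means was fitted to all 18 tumours over the 12587 genes with a mean of at least 0.5 FPKM, with limma 3.58.1 in R 4.3.3 and moderated variances that follow the mean, and was tested on simulated data. Tests are 2-sided with Benjamini-Hochberg adjustment within each of 13 comparisons, which share tumours. SE is limma's error of a log2 fold change. A branch for count data was not used. In each role, the 2 members with the widest range of group means and the most abundant one are given by tumour. Ifit2, Ifit3b and Oasl1, outside this rule, were chosen for it after their values were seen. Pathway genes are at most 4 per list, smallest p first, with Ifnb1 added after its values were seen. A pathway gene that this rule would name is not reported here. The members and lists were chosen with earlier results of these data known. Promoters come from RefSeq (GRCm38.p6), and shared 100-base stretches were counted over GENCODE M21 transcripts. Other steps used Python 3.11.15 with pandas 2.3.3, scipy 1.17.1, numpy 2.4.6 and matplotlib 3.10.9.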

Additional observations from a re-analysis of the deposited data

Results flagged for a closer look

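Ifit3b lay on opposite sides with anti-PD-1 after cryo-thermal therapy and after radiofrequency ablation. It had 1.98, 2.74 and 2.33 FPKM in cryo-thermal plus anti-PD-1 tumours, against 7.41, 3.67 and 3.68 FPKM in cryo-thermal tumours, all lower. It had 2.95, 3.06 and 4.06 FPKM in radiofrequency plus anti-PD-1 tumours, against 2.94, 2.06 and 2.67 FPKM in radiofrequency tumours, all higher. That order rests on 2.95 against 2.94 FPKM, values that all but touch. Only members were searched for such opposite sides, and the share among all genes was not computed. The difference of the 2 antibody effects, cryo-thermal minus radiofrequency, was -1.06 on the log2 scale and did not pass limma's test of that difference (adjusted p = 0.547). Fragments of Ifit3b cannot be told fully from those of Ifit3.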

How the results depend on the processing

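The 34 members called higher in cryo-thermal against cryoablation tumours were 29 to 34 under every setting that kept all their tumours, and 24 to 33 with 1 tumour left out (24 without cryo-thermal replicate 1). The F test over 6 groups called 30 members, 16 with no filter on low values, and 10 to 33 with 1 tumour left out (10 without cryoablation replicate 1). For cryo-thermal against cryoablation tumours, both with anti-PD-1, the 3 calls became 0 with no filter, 0 when only these groups were fitted, 11 without the 3 tumours rich in hair follicle RNA, and 0 to 21 with 1 tumour left out (21 without cryoablation plus anti-PD-1 replicate 1). For anti-PD-1 after cryoablation the 3 calls became 7 with a pseudocount of 0.1, 0 with no filter and 1 when only these groups were fitted. With 1 tumour left out they were 0 to 9 (9 without cryoablation replicate 2). Leaving out 1 tumour gave 0 to 1 calls for cryo-thermal against radiofrequency tumours, 0 to 3 for radiofrequency against cryoablation tumours, 0 to 2 for the antibody effect of cryo-thermal therapy minus that of cryoablation, and 0 to 3 for its mean over ablations, which gave 1 with a pseudocount of 0.1. The other 6 comparisons gave 0 calls under every setting run. No called member changed sign under any setting run, but the median over members for anti-PD-1 after cryo-thermal therapy, -0.21, was 0.05 without cryo-thermal replicate 1. Shares of all genes called under other settings or with tumours left out are not given here. Member counts under them therefore cannot be read against the shares of the main fit. The causes were not tested.

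Same-numbered tumours did not deviate together in every pair (correlations of -0.44 to 0.59, with no comparison over 0.1 in all 3 pairs). For cryo-thermal plus anti-PD-1 against radiofrequency plus anti-PD-1 they were 0.50, 0.06 and 0.59 for numbers 1, 2 and 3. Whether tumours of the same number shared a batch cannot be told from these values. With the replicate block the calls were 34 for cryo-thermal against cryoablation, 3 with anti-PD-1 in both, 2 for anti-PD-1 after cryoablation, 29 for the F test and 0 for the others. With 3 tumours a group and no fragment counts, members near 0 FPKM in cryoablation tumours, such as Ifit3b and Oas1g, rest on few fragments there.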
